A study of Mus musculus with 6 samples.

Results

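Disabled-2 (Dab2), its adaptor relatives and the lipoprotein receptors that such adaptors bind were followed through a 48-hour exposure of cultured mouse skin cells to high glucose. The 9 genes were Dab2, Dab1, Dab2ip, Numb, Numbl, Lrp1, Lrp2, Vldlr and Lrp8, chosen by name with earlier results of these data known. All 9 were found among the 55487 gene identifiers of the deposited count table. The table holds bulk RNA-sequencing counts of poly(A) RNA from 6 samples, of which 3 were grown with 5 mmol/L glucose (normal glucose) and 3 with 20 mmol/L (high glucose). In both groups the cells were primary skin cells of C57BL/6 mice aged 2 to 3 months, with the skin of 4 to 6 animals used for an isolation and anti-CD31 MicroBeads used to enrich endothelial cells (ECs). Neither group carried a further allele or agent. The study describes the replicates of a group as mice, but the labels do not say that the 3 samples of a group were separate isolations or cultures, so the P values measure only the spread between these samples, which may be technical in part or whole.

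Dab2, Dab1, Numb and Numbl carry a phosphotyrosine-binding (PTB) domain, which recognizes short NPXY motifs (asparagine, proline, any residue, tyrosine) in the cytoplasmic tails of receptors. Dab2 couples such receptors to clathrin and adaptor protein complex AP-2 and so brings them into coated pits, and in ECs it has also been tied to VEGF receptor traffic. Dab1 relays the Reelin signal from the receptors encoded by Vldlr and Lrp8, Numb and Numbl are best known as regulators of Notch, and Dab2ip encodes a Ras GTPase-activating protein named for its binding to Dab2. The receptors encoded by Lrp1, Lrp2 (megalin), Vldlr and Lrp8 belong to the low-density lipoprotein (LDL) receptor family and take up lipoproteins, proteases and their inhibitors.

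The motif that links the adaptors to the receptors was read from the coding sequences of GENCODE transcripts on GRCm38 and is shown as codons, since it is the feature that makes these receptors candidate cargo. In each run of 30 bases, written 5′ to 3′ on the coding strand, the capitals mark the codons of asparagine, proline, any residue and tyrosine. The search covered the last 220 codons, a fixed window that holds the cytoplasmic tails but was not cut to them. Lrp1 and Lrp2 each have 1 more NPXY motif ahead of that window that is not shown. Within it, both sites of Lrp1 (chr10:127539299-127539328 in exon 88 and chr10:127539055-127539084 in exon 89 of 89, minus strand), the sites of Lrp2 (chr2:69430296-69430325 in exon 76 and chr2:69425801-69425997 of 79 exons, minus strand, the latter with its motif in exon 78 and the end of the run in exon 79), and the sites of Vldlr (chr19:27247931-27247960, exon 18 of 19, plus strand) and Lrp8 (chr4:107869052-107869081, exon 17 of 19, plus strand) lie in coding exons.
Lrp1, first site: gaaattggaAACCCTACCTACaagatgtat
Lrp1, second site: aacttcaccAACCCAGTGTATgccacgctc
Lrp2, first site: atatttgaaAACCCAATGTATgcagccaaa
Lrp2, second site: aacttcgaaAATCCAATCTATgcagagatg
Vldlr: aactttgacAATCCTGTGTACttgaagacc
Lrp8: aatttcgacAACCCAGTGTACaggaaaacg
All of the sites shown except the first of Lrp1 have a phenylalanine codon (TTT or TTC) as the second codon ahead of the asparagine codon, an extended form of the motif. NPXY codons lay within the last 220 codons of 1.51% of the 21536 coding genes searched, and the extended form in 0.107% of them (23 genes). The receptors were chosen as cargo of such adaptors, and the search took in all coding genes, with or without a cytoplasmic tail. These shares and matches therefore describe the sequences and do not show that a site is bound.

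Each sample held between 120192466 and 146881356 counts. Counts were scaled to a common library total (CPM) with edgeR's TMM factors, and 19015 genes passed the filter on low counts and were tested with edgeR's quasi-likelihood test, with a gene called at an adjusted P value under 0.05. Of these, 14.5% were called lower and 16.9% higher in high glucose, 31.4% in either direction, and for 46.4% the CPM values of one glucose concentration all lay to one side of the other. The cell type label was set against marker genes. Of 16 endothelial genes, 8 had at most 20 counts in every sample. Among them were Pecam1, which encodes CD31 (9 to 19 counts), and Sox17 (0 counts in all samples). The 16 genes summed to 174 to 197 CPM in normal glucose and 155 to 161 CPM in high glucose. Sums and shares of marker lists, here and below, were taken per library total without the TMM factors. These factors were 1.03 to 1.05 in normal glucose and 0.954 to 0.966 in high glucose. With them, the sums would be lower in normal and higher in high glucose. Tie1, Cldn5 and Robo4 were at or near 0 as well. Eng made up most of the endothelial sum (155 ± 12.3 CPM with the TMM factors in normal glucose, SD, n = 3). Egfl7 (11.1 ± 0.740 CPM), Kdr, Plvap and Cdh5 (231 to 242 counts in normal glucose, 91 to 130 in high glucose) were also detected. Of the 10 tested endothelial genes, 2 were called lower, Cdh5 and Egfl7, and 3 higher, Tek, Erg and Plvap. Erg was among the genes with at most 20 counts in every sample, with 2 to 8 counts in normal glucose and 12 to 15 in high glucose. The 12 fibroblast genes, which include Col1a1, Col3a1 and Pdgfra, held 4.08% to 4.38% of the counts in normal glucose and 6.83% to 7.24% in high glucose, and all 12 were called, 9 higher and 3 lower. The samples are therefore named below by their glucose concentration, not by a cell type.

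Among the 9 genes, the receptor genes Lrp1 and Vldlr moved most and in opposite directions: Lrp1 was 1.86-fold higher and Vldlr 48.5% lower in high glucose. Dab2 was 16.5% lower, Dab2ip and Numbl were 17.5% and 14.0% higher, and Numb, Lrp2 and Lrp8 did not pass the test. Dab1 had too few counts to be tested. Thus 2 of the 8 tested genes were called lower, against 14.5% of all tested genes, and 3 were called higher, against 16.9%. In either direction 5 of 8 (62.5%) were called, against 31.4%, and 6 of 8 had groups whose CPM values were separate, against 46.4%. These counts depended on the setting: 1 gene was lower and 1 higher without high glucose replicate 1, 1 and 2 without replicate 2, and 2 and 1 without replicate 3, while library size scaling or removal of the GC and length trend gave 3 lower and 1 higher. The median log2 fold change of the 8 genes was 0.15, and that of all tested genes was 0.0062. Under library size scaling these medians were 0.037 and -0.11. With the GC and length trend removed, the median of the 8 genes was 0.0047. The 9 genes and the lists below were chosen with earlier results of these data known. Their shares and medians beside those of all tested genes are therefore a description, not a test. In bulk samples, fewer cells of a type and less RNA per cell cannot be told apart.

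**Figure D1:**
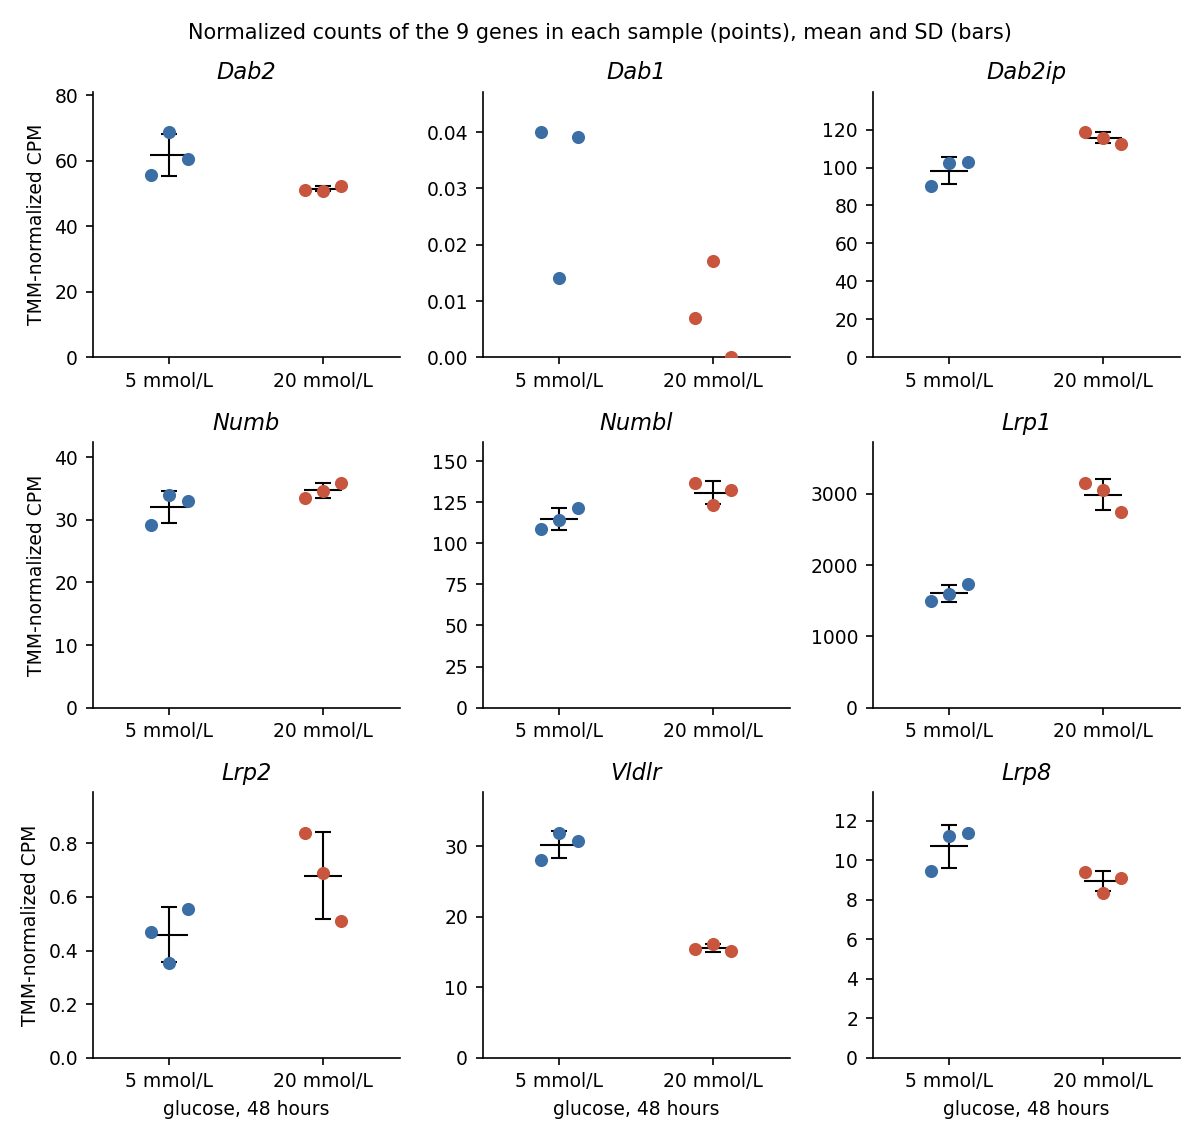
TMM-normalized CPM (vertical axes, each starting at 0) of the 9 genes in the 3 samples at 5 mmol/L glucose (blue points) and the 3 at 20 mmol/L (red points), with bars for the mean and SD of each group except for Dab1, whose counts are too low. The groups lie apart for Dab2, Dab2ip, Numbl, Lrp1, Vldlr and Lrp8 and overlap for Numb and Lrp2.

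Dab2 lies on the plus strand of chromosome 15 (chr15:6299788-6440712, ENSMUSG00000022150). It had 6984, 9734 and 7770 counts in normal glucose replicates 1, 2 and 3, or 55.8, 68.6 and 60.7 CPM. In high glucose it had 7264, 5919 and 7068 counts, or 51.2, 50.9 and 52.4 CPM. All high glucose values were below all normal glucose values, and the high glucose samples lay close together while normal glucose replicate 2 stood above the other two. The mean fell from 61.7 ± 6.48 to 51.5 ± 0.812 CPM (SD, n = 3), and the log2 fold change was -0.26 (standard error 0.072, 95% interval -0.42 to -0.10, adjusted P = 0.0201). An exact two-sided permutation test of the CPM gave P = 0.1, the smallest that 3 samples against 3 allow. A larger fall was measured for 2252 of the 2757 genes called lower. The call was lost without high glucose replicate 1 (log2 fold change -0.27, adjusted P = 0.0584) or replicate 2 (-0.27, adjusted P = 0.0582), and the study had drawn attention to Dab2 from these same samples, so the call is not independent evidence. The study also reported lower Dab2 by qPCR, Western blot and immunostaining, which are not among the values used here. The exons of Dab2 share 211 bases with the pseudogene Gm18888 on the opposite strand, which had 0 counts in all samples. Whether reads were counted by strand is not given in the sources used here.

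Dab1, on the plus strand of chromosome 4 (chr4:103619359-104744844, ENSMUSG00000028519), was almost undetected. Its counts were 5, 2 and 5 at 5 mmol/L and 1, 2 and 0 at 20 mmol/L glucose. At these totals a floor of 3 counts corresponds to between 0.0204 and 0.0250 CPM, so a difference between the groups was not detectable at this depth. The Reelin gene itself, Reln, the ligand of this pathway, had a mean of 0.351 ± 0.0286 CPM in normal glucose and 0.203 ± 0.0456 CPM in high glucose (SD, n = 3).

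Dab2ip lies on the plus strand of chromosome 2 (chr2:35558266-35730994, ENSMUSG00000026883). Its normalized values were 90.3, 102 and 103 CPM in normal glucose and 118, 116 and 113 CPM in high glucose, from 11307 to 16805 counts per sample. The groups did not overlap, although the gap between the nearest samples was smaller than the distance of normal glucose replicate 1 from the other normal glucose samples. The log2 fold change was 0.23 (standard error 0.061, 95% interval 0.096 to 0.37, adjusted P = 0.0157), from 98.4 ± 7.04 to 115.6 ± 2.93 CPM (SD, n = 3). Scaling by library size alone ended the call and brought the log2 fold change to 0.12 (adjusted P = 0.162), and removing the trend of each library on GC content and length brought it to 0.054 (adjusted P = 0.29). Without high glucose replicate 1, 2 or 3 the adjusted P value was 0.0974, 0.0659 and 0.0572. The opposite-strand transcript Gm13446, which shares 347 exonic bases, had 71 counts in all samples together.

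Numb, an inhibitor of Notch that is also an endocytic adaptor, lies on the minus strand of chromosome 12 (chr12:83794034-83921934, ENSMUSG00000021224). It had 29.2, 34.0 and 33.0 CPM in normal glucose and 33.5, 34.7 and 35.9 CPM in high glucose. The groups overlapped, since normal glucose replicate 2 was above high glucose replicate 1. The log2 fold change of 0.11 did not pass the test (95% interval -0.031 to 0.26, adjusted P = 0.214), an interval that includes changes from -2.13% to 19.8%, and was -0.00014 under library size scaling. Its exons share 166 bases with Gm46367 on the opposite strand, which had 6 counts in all.

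Numbl, the close paralog of Numb, lies on the plus strand of chromosome 7 (chr7:27258433-27282144, ENSMUSG00000063160). It had 108.7, 114.2 and 121.5 CPM in normal glucose, and 136.9, 123.1 and 132.5 CPM in high glucose. The groups did not overlap, but the lowest high glucose sample was close to the highest normal glucose sample. The log2 fold change was 0.19 (standard error 0.061, 95% interval 0.053 to 0.33, adjusted P = 0.0393), and it turned to -0.044 (adjusted P = 0.505) when the GC and length trend was removed. The adjusted P value was 0.102, 0.0962, 0.22 and 0.174 without normal glucose replicate 1, normal glucose replicate 2, high glucose replicate 1 and high glucose replicate 3. Numbl shares 85 exonic bases with Gm44641 on the same strand, which had 27 counts in all samples together.

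**Figure D2:**
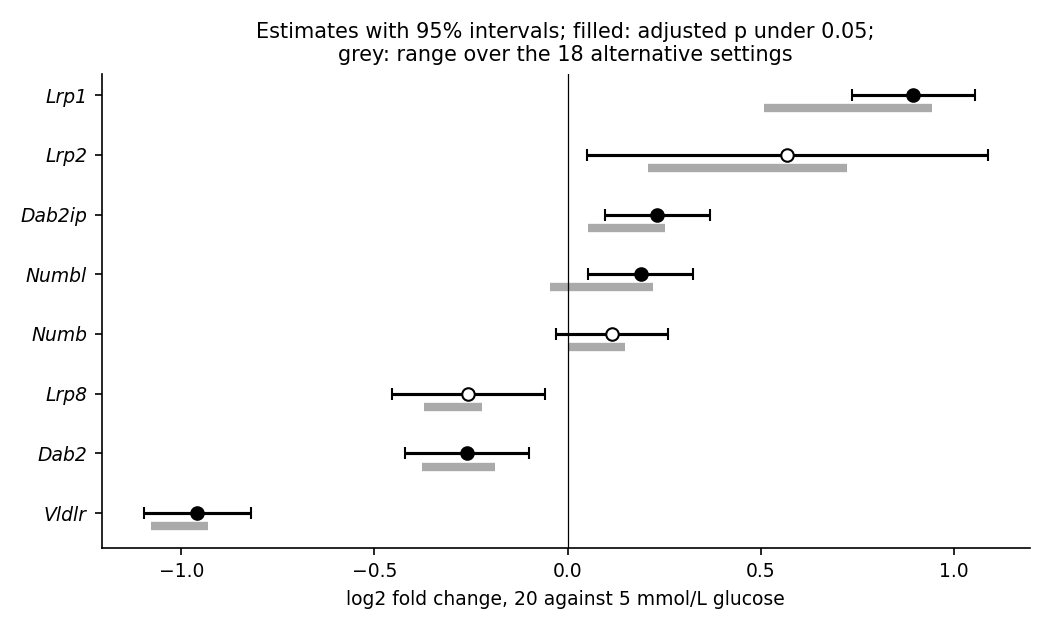
Log2 fold changes at 20 against 5 mmol/L glucose (horizontal axis) for the 8 tested genes, with 95% intervals; filled points passed an adjusted P value under 0.05, and grey bars span the 18 alternative settings. Lrp1 and Vldlr lie far from 0 in every setting, whereas the bar of Numbl crosses 0 with the GC and length trend removed (-0.044) and that of Numb reaches it under library size scaling.

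Lrp1 lies on the minus strand of chromosome 10 (chr10:127538161-127621148, ENSMUSG00000040249) and encodes a large endocytic receptor for apolipoprotein E, proteases and matrix proteins. It had 186907, 226070 and 221923 counts in normal glucose, or 1492, 1593 and 1733 CPM. In high glucose it had 448007, 356037 and 370192 counts, or 3158, 3062 and 2746 CPM. The lowest high glucose sample was far above the highest normal glucose sample. Lrp1 rose from 1606 ± 121 to 2988 ± 215 CPM (SD, n = 3), and the log2 fold change was 0.90 (standard error 0.072, 95% interval 0.74 to 1.06, adjusted P = 8.34e-06). Its mean log2 CPM, which is not divided by length, was the 29th highest of the tested genes. Of the 3212 genes called higher, 484 rose by more on the log2 scale. The longest Lrp1 transcript, at 14888 bases and 57.9% GC, is longer than that of 99.6% of the tested genes. With the GC and length trend removed, the rise was smaller, at 0.51 on the log2 scale, and still called (adjusted P = 1.46e-04).

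Of the 12 fibroblast genes given above, 9 rose as Lrp1 did, whereas Thy1, Twist2 and S100a4 fell by 0.40, 0.70 and 1.27 on the log2 scale, and the part of these genes in the result was not tested. For 2 of the markers that rose, ratios were taken within each sample: that of Lrp1 to Pdgfra per exon length was 0.465 ± 0.0283 (SD, n = 3) in normal glucose and 0.630 ± 0.0438 in high glucose. The ratio of Lrp1 to Col3a1 was 0.0718 ± 0.00614 in normal glucose and 0.0509 ± 0.00287 in high glucose. The groups overlapped in neither ratio, so Lrp1 rose more than Pdgfra and less than Col3a1. Of the other markers that rose, Fap had a log2 fold change of 0.93, and the rest had 0.32 (Lum) to 0.80 (Postn). Lrp1 had 0.90 on that scale. Neither ratio was corrected for the GC and length trend. These and the other ratios of genes below were chosen after the values had been seen and are given without a test. The summed level of 10 macrophage genes, another cell type in which Lrp1 is abundant, was 18.4 to 20.7 CPM in normal glucose and 25.9 to 26.7 CPM in high glucose, with Adgre1, Ptprc, Itgam, C1qa and C1qb at 0 in every high glucose sample. Of the 5 tested macrophage genes, 3 were lower and 1, Cd14, was higher (80% called, against 31.4% of all tested genes). The rise of the sum came from Cd14, which went from 9.47 ± 0.554 to 21.1 ± 0.0449 CPM with the TMM factors (SD, n = 3). Csf1r fell from 5.62 ± 0.646 to 3.38 ± 0.429 CPM.

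The other marker lists were lower in sum than the fibroblast genes. The 8 mural genes summed to 1237 to 1301 CPM in normal glucose and 1016 to 1093 CPM in high glucose. Of these 8, 5 were called lower and 1 higher, against 14.5% lower and 16.9% higher of all tested genes. The 4 lymphatic endothelial genes summed to 384 to 390 and 224 to 232 CPM, of which nearly all was Pdpn, which fell. The 4 adipocyte genes summed to 251 to 303 and 268 to 302 CPM, and 2 of them, Adipoq and Plin1, rose. The 7 keratinocyte genes summed to 4.18 to 5.28 and 4.40 to 4.87 CPM. Of the 3 tested, 1, Krt5, was higher (33.3% called, near the 31.4% of all tested genes). Krt5 had only 2 counts in each normal glucose sample and 12 to 23 in high glucose. Their part in the results on the 9 genes was not tested.

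Vldlr, which encodes the very-low-density lipoprotein receptor and lies on the plus strand of chromosome 19 (chr19:27216484-27254231, ENSMUSG00000024924), fell in parallel in all high glucose samples. It had 3522, 4526 and 3937 counts in normal glucose, or 28.1, 31.9 and 30.7 CPM. In high glucose it had 2188, 1882 and 2038 counts, or 15.4, 16.2 and 15.1 CPM. The gap between the groups was several times the spread within either of them. The log2 fold change was -0.96 (standard error 0.062, 95% interval -1.10 to -0.82, adjusted P = 1.92e-06), from 30.3 ± 1.94 to 15.6 ± 0.549 CPM (SD, n = 3). Among the 2757 genes called lower, the fall was larger for 605. Over the 18 alternative settings the value stayed between -1.08 and -0.93, and each was called.

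Lrp8, which encodes the other Reelin receptor (ApoER2), lies on the plus strand of chromosome 4 (chr4:107802261-107876840, ENSMUSG00000028613). It had 9.47, 11.2 and 11.4 CPM in normal glucose and 9.39, 8.37 and 9.10 CPM in high glucose. The groups did not overlap in CPM, but normal glucose replicate 1 and high glucose replicate 1 were almost equal. In values per exon length without the TMM factors (TPM, described below), the groups overlapped. Normal glucose replicate 1 had 3.18 TPM and high glucose replicate 1 had 3.27 TPM. The log2 fold change of -0.26 narrowly missed the threshold (95% interval -0.45 to -0.059, adjusted P = 0.0505), and 9 of the 18 alternative settings brought it past the threshold. Without normal glucose replicate 1 the value was -0.35 (adjusted P = 0.00388).

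Lrp2, megalin, an uptake receptor best known from kidney and other absorptive epithelia, lies on the minus strand of chromosome 2 (chr2:69424340-69586065, ENSMUSG00000027070). Its counts were 59, 50 and 71 at 5 mmol/L and 119, 80 and 69 at 20 mmol/L glucose. High glucose replicate 3 was below normal glucose replicate 3 in normalized values (0.512 against 0.554 CPM), so the groups overlapped. The log2 fold change of 0.57 did not pass the test (95% interval 0.051 to 1.09, adjusted P = 0.089), an interval that covers changes from 3.63% to 113%. With the GC and length trend removed it was 0.22 (adjusted P = 0.529).

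Levels were compared between genes as TPM values, which are counts divided by the length of the annotated exons and scaled to a common total. Lrp1 stood far above the other 8 genes, at 329 ± 28.9 TPM in normal glucose and 611 ± 46.8 TPM in high glucose (SD, n = 3). The adaptors followed, with Numbl at 48.0 ± 3.38, Dab2ip at 42.7 ± 4.07, Dab2 at 30.5 ± 4.09 and Numb at 29.7 ± 3.14 TPM in normal glucose. Numbl and Dab2ip overlapped, as did Dab2 and Numb. The Reelin receptors were lower, with Vldlr at 10.9 ± 0.997 and Lrp8 at 3.69 ± 0.450 TPM, and Lrp2 and Dab1 were lowest, at 0.0994 ± 0.0206 and 0.0141 ± 0.00645 TPM. In high glucose Dab2 (25.4 ± 0.541 TPM) was below Numb (32.1 ± 0.973 TPM) without overlap. Vldlr (5.60 ± 0.159 TPM) approached Lrp8 (3.08 ± 0.218 TPM) but remained above it in every sample. The order of neighbours depended on the length used. With the longest coding transcript of each gene, meaning the one with the longest coding sequence, Numb was above Dab2 in both groups. Lrp8 was then slightly above Vldlr in high glucose (1.97 against 1.95 CPM per kilobase), whereas Lrp1 and Numbl kept the top ranks. This length leaves out untranslated sequence unevenly. The transcript used has 1962 bases for Numb, 1959 of them coding, and 4663 for Dab2, 2298 of them coding.

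**Figure D3:**
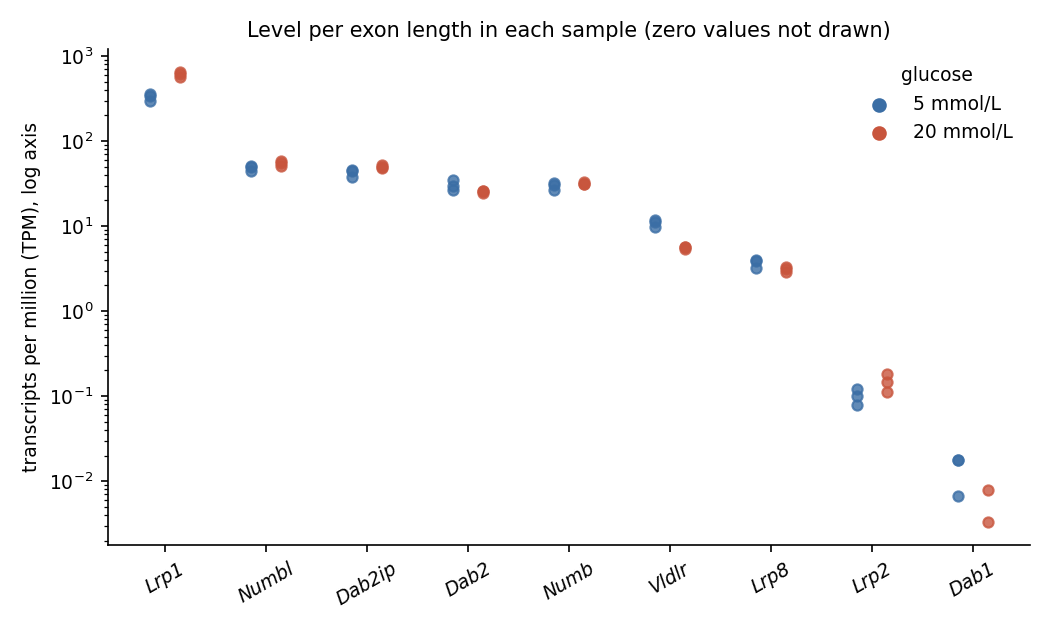
TPM per exon length (vertical log axis) of the 9 genes in each sample, blue for 5 mmol/L and red for 20 mmol/L glucose; the single Dab1 value of 0 is not drawn. Lrp1 lies far above the adaptors in both groups, and Lrp2 and Dab1 lie below 1 TPM in every sample.

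The balance between Lrp1 and Dab2 within each sample moved with these changes. The ratio of Lrp1 to Dab2 in TPM was 11.1, 9.62 and 11.8 in normal glucose, and it was 25.6, 24.9 and 21.7 in high glucose. The ratio of Lrp1 to Vldlr rose from 30.2 ± 1.82 to 109 ± 6.70 (SD, n = 3), since the genes moved in opposite directions. Ratios that fell without overlap were Vldlr to Lrp8, from 2.96 ± 0.141 to 1.82 ± 0.171 (1.62 in normal glucose with the longest coding transcript as length, and about equal levels in high glucose), and Dab2 to Dab2ip, from 0.714 ± 0.0462 to 0.508 ± 0.0200. The groups overlapped for the ratios of Numbl to Numb and Lrp1 to Lrp2.

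**Figure D4:**
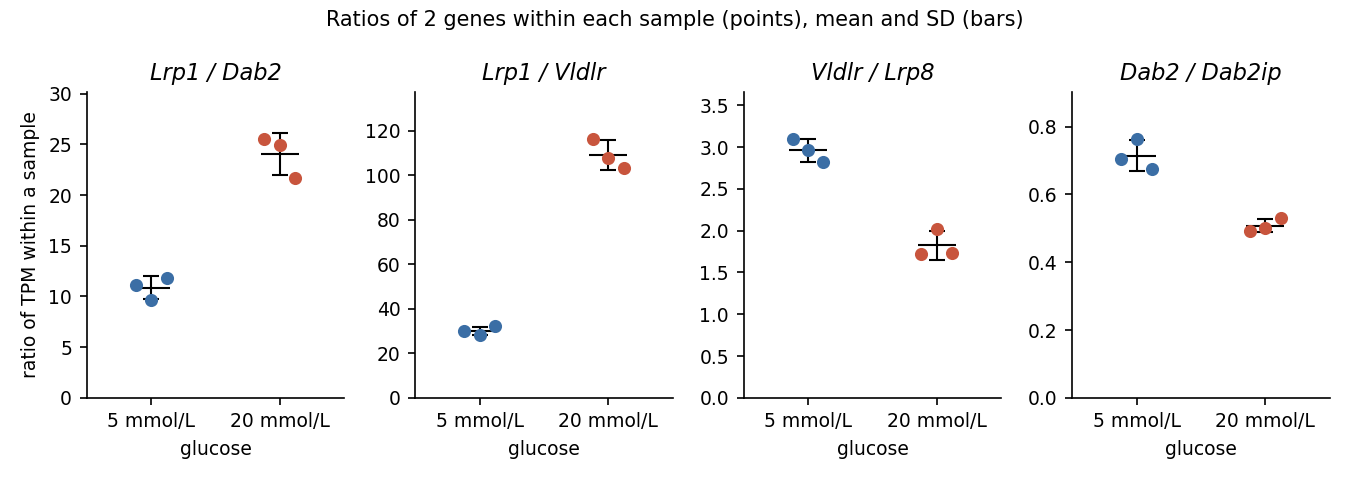
Ratios of TPM values of 2 genes within each sample (vertical axes, starting at 0) at 5 and 20 mmol/L glucose, with the mean and SD of 3 samples as bars. The groups are separate in each panel; Lrp1 to Dab2 rises from about 10.9 to 24.1 and Vldlr to Lrp8 falls from 2.96 to 1.82, levels of the ratios that depend on the exon length used (1.62 for the latter in normal glucose with the longest coding transcript).

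In the rest of the LDL receptor family, the genes that were called rose. Of 9 tested genes (10 were listed, and Lrp1b had at most 4 counts in a sample), 6 (66.7%, against 31.4% of all tested genes) were called higher and 0 lower, with a median log2 fold change of 0.25. In edgeR's quasi-likelihood test 2 genes, Lrp11 and Sorl1, were lower at an unadjusted P value under 0.05, DESeq2 called 1 lower, and scaling by library size gave 3 higher and 2 lower. With upper quartile scaling or the GC and length trend removed, 5 were higher and 2 lower. There were 6 higher and 2 lower with halved counts or without normal glucose replicate 1, and 4 higher and 1 lower without high glucose replicate 3. Without high glucose replicate 1, edgeR's quasi-likelihood test called 3 higher and 0 lower (1 lower at an unadjusted P value under 0.05). Lrp4, a receptor for agrin and a Wnt regulator, rose from 18.9 ± 2.06 to 45.5 ± 1.04 CPM (SD, n = 3), a log2 change of 1.27 (adjusted P = 1.07e-06). Lrp6, a Wnt co-receptor, had a log2 fold change of 0.82, and the other Wnt co-receptor, Lrp5, had 0.30. The call of Lrp5 was lost under library size scaling (0.19, adjusted P = 0.0662), with the GC and length trend removed (0.062, adjusted P = 0.34) and without high glucose replicate 1 (0.27, adjusted P = 0.062).

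Ligands, chaperones and turnover factors of these receptors were mostly higher. Of 10 tested genes (80% called, against 31.4% of all), 6 were called higher and 2 lower, and the median log2 fold change was 0.25. Only 1 was lower without normal glucose replicate 2 or 3 or high glucose replicate 2 or 3. Apoe, which encodes the main apolipoprotein ligand of the family, rose from 298 ± 31.3 to 621 ± 10.6 CPM (SD, n = 3), a log2 change of 1.06 (adjusted P = 3.09e-06). Lpl, lipoprotein lipase, rose from 4212 ± 131 to 6475 ± 233 CPM, and Clu, clusterin, a Reelin receptor ligand, had a log2 fold change of 0.51. Mylip, whose product marks the Vldlr and Lrp8 proteins for degradation, rose by 0.44 on the log2 scale (adjusted P = 1.51e-04). Reln and Amn, an anchoring subunit for the cubilin receptor, were the genes called lower, and both had means under 1 CPM.

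Among the other PTB adaptors, 8 of 21 tested genes were called higher and 3 lower, or 52.4% in either direction against 31.4% of all tested genes, with a median log2 fold change of 0.12. Library size scaling turned this to 3 higher and 5 lower (median 0.0095), and the higher genes numbered 5 without normal glucose replicate 3 or high glucose replicate 1 or 2 and 4 without high glucose replicate 3. Gulp1, an engulfment adaptor that binds Lrp1, rose from 24.4 ± 1.86 to 42.5 ± 1.85 CPM (SD, n = 3), a log2 change of 0.80 (adjusted P = 9.86e-06). Nos1ap and Appl2 had log2 fold changes of 0.61 and 0.40, and Shc4 had -0.31. The call of Nos1ap was lost without normal glucose replicate 3 (adjusted P = 0.0506) or high glucose replicate 2 (adjusted P = 0.0574).

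Of 16 tested genes of coat proteins and other endocytic partners of Dab2, 2 were higher and 2 lower, so that 25% were called, near the 31.4% of all tested genes. In both library size scaling (5 lower) and removal of the GC and length trend (4 lower), 1 was higher. There was 1 higher and 1 lower without high glucose replicate 2, and without high glucose replicate 3 edgeR's quasi-likelihood test called 1 higher and 0 lower (2 lower at an unadjusted P value under 0.05). The median log2 fold change was 0.031, and it turned to -0.084 under library size scaling and to -0.037 with the GC and length trend removed. Itsn1, a scaffold of the coated pit, rose from 238 ± 12.6 to 343 ± 2.99 CPM (SD, n = 3), a log2 change of 0.53 (adjusted P = 4.44e-05) that was 0.18 with the GC and length trend removed (adjusted P = 0.0109). The clathrin light chain gene Clta had -0.25, with an adjusted P value of 0.0585 without high glucose replicate 3, and the AP-2 subunit gene Ap2a2 had 0.16, and the latter call was lost in 15 of 18 alternative settings, leaving out any of the 6 samples among them.

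Receptors and signalling partners of Dab2 moved in both directions. Of 12 tested genes, 4 were called higher and 2 lower (50% called, against 31.4% of all tested genes). Their median log2 fold change was 0.17. Only 1 was higher without high glucose replicate 1, 2 or 3. Under library size scaling 0 were called higher by edgeR's quasi-likelihood test (1 at an unadjusted P value under 0.05) and 2 lower. Flt1, which encodes VEGF receptor 1, fell from 55.3 ± 2.06 to 38.4 ± 0.153 CPM (SD, n = 3), a log2 change of -0.53 (adjusted P = 2.96e-05). The integrin gene Itgb1 had a log2 fold change of -0.25, Smad3 of the TGF-β pathway had 0.31 and the Ras activator gene Sos1 had 0.27. The call of Smad3 was lost under library size scaling (0.19, adjusted P = 0.0577), and that of Sos1 in 9 of the 18 alternative settings. Kdr, which encodes VEGFR2, was not called and had 4.95 ± 0.457 CPM in normal glucose and 5.50 ± 0.228 CPM in high glucose.

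Of 11 tested genes acting in Reelin signalling below its receptors, 2 were called higher and 0 lower by edgeR's quasi-likelihood test, with 2 lower at an unadjusted P value under 0.05 and 2 called lower by DESeq2. These 2 of 11 (18.2%) stand below the 31.4% of all tested genes, and 1 was higher without high glucose replicate 1 or 3. The median log2 fold change of 0.080 became -0.035 under library size scaling. The genes called were Pik3r1, a regulatory subunit of PI3-kinase, with a log2 fold change of 0.68 (adjusted P = 6.79e-06), and Src, with 0.22 (adjusted P = 0.0103). The call of Src was lost without high glucose replicate 1 (adjusted P = 0.0731) or 3 (adjusted P = 0.0891) and under library size scaling (0.10, adjusted P = 0.15). Among 12 partners of Numb and Notch receptors, 6 were called higher and 2 lower (66.7% called), with a median of 0.21. The higher genes numbered 3 without normal glucose replicate 3 or high glucose replicate 1 or 2, 4 without high glucose replicate 3, and 3 under library size scaling (median 0.098). Notch2 and Notch1 rose by 0.51 and 0.48 on the log2 scale, values that were 0.22 and 0.21 with the GC and length trend removed, whereas Notch4 fell by 0.69 and Mdm2, whose product is bound by Numb, fell by 0.60. Of the 10 tested Ras GTPase-activating proteins and Dab2ip partners (12 were listed), 5 were called higher and 1 lower (60% called), with a median of 0.18, and 3 were higher without high glucose replicate 1 or 3 and under library size or upper quartile scaling. Map3k5, the kinase ASK1 that Dab2ip helps to activate, had a log2 fold change of 0.68, Rasal2 had 0.51 (0.29 with the GC and length trend removed), Rasa3 had 0.42 and Rasa1 had -0.44.

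**Figure D5:**
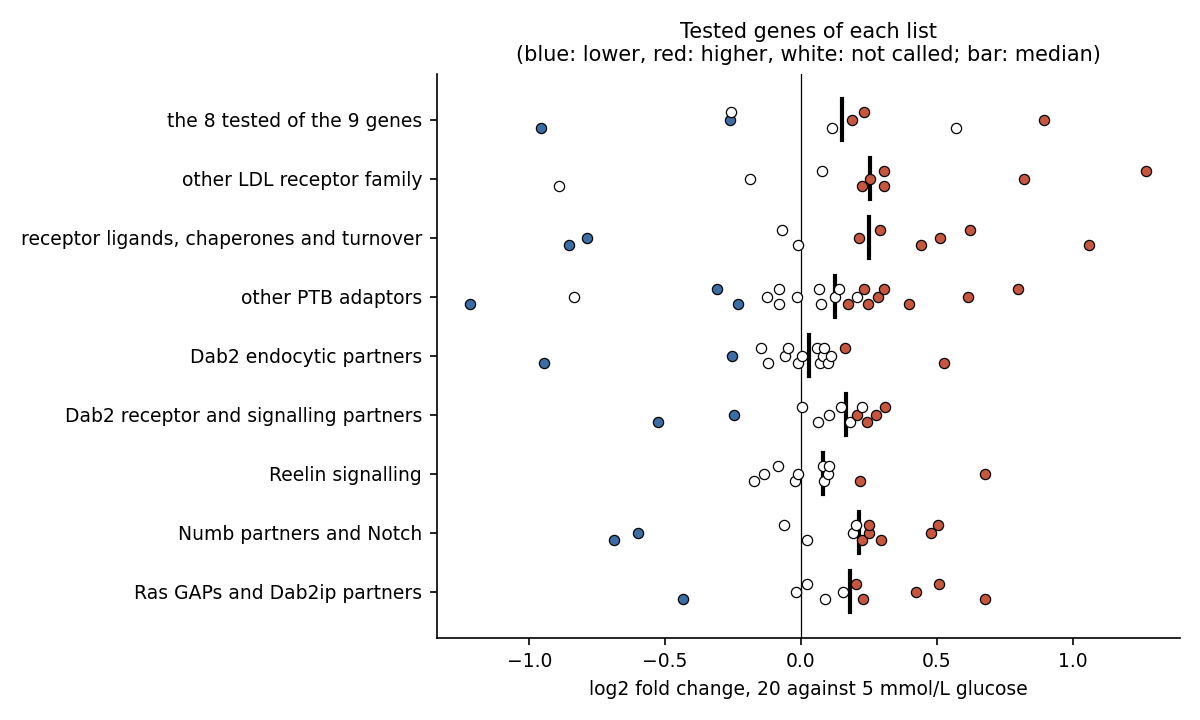
Log2 fold changes at 20 against 5 mmol/L glucose (horizontal axis) of the tested genes in each list, blue for called lower, red for called higher, white for not called, with a bar at each list's median. Medians lie between 0.031 and 0.25, and those of the Dab2 endocytic partners and of Reelin signalling turn negative (-0.084 and -0.035) under library size scaling.

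The genes whose pattern over the 6 samples was most like that of each gene were found by the root mean square difference in centred log2 CPM, over 12478 tested genes whose mean log2 CPM was 1 or more. Fnip2, Met and Hspa4l were nearest to Dab2, with differences of 0.0265, 0.0314 and 0.0349. Nearest to Lrp1 were Abca2, Efnb1 and Thsd7a (0.0577, 0.0586 and 0.0621), and nearest to Vldlr were Ercc6l, Kntc1 and Sh3bgrl2 (0.0175, 0.0253 and 0.0332). Dab2ip lay nearest to Sept8, Ephb6 and Ctif, Numbl to Fbf1, Fbln2 and Krba1, Numb to Tada2b and Fer, and Lrp8 to Gys1, Pcx and Ankrd34a, all within 0.033. The nearest genes to Lrp2, which were Frat1, Socs1 and Qprt, differed by at least 0.192.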

How the data were processed

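Per the labels and the study's methods, the authors trimmed reads with Trimmomatic, aligned them to GRCm38 (mm10) with HISAT2 and counted reads per gene with StringTie. They deposited whole-number counts per gene, without normalization. Tool versions, strandedness and the annotation release are not given in the sources used here.

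The counts of all 6 samples were fitted together with edgeR 4.0.16 under R 4.3.3. Low genes were removed by filterByExpr, set to a minimum count of 10 and a total of 15, libraries were scaled by TMM, and high was compared with normal glucose by the quasi-likelihood test. P values were adjusted over all tested genes by Benjamini-Hochberg, and the threshold was 0.05. The biological coefficient of variation was 8.44%, and replicates differed by more than sampling noise (chi-square per degree of freedom of at least 9.76). Of the identifiers, 346 had no symbol. Intervals and floors cover counting and replicate error only; if both reads of a pair were counted, counts are not independent molecules, and halved counts were tried. Positions, exon lengths for TPM and coding sequences came from GENCODE M21 (GRCm38). Standard errors came from the test statistic. The fit was tested on simulated counts.

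Named genes were the 9 genes, up to 4 called genes per list with the largest change and a mean log2 CPM of 1 or more, genes overlapping the 9, the 3 nearest genes in pattern, and markers. Lrp1b, Lrp11, Sorl1, Reln, Amn and Kdr are named beyond that rule. Some genes that the rule selects are not reported here. The 9 genes and the lists were chosen with earlier results of these data known.

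Alternatives were the likelihood ratio test, DESeq2 1.42.0, other normalizations, filters and thresholds, the replicate block and each sample left out. Removing each library's GC and length trend (mgcv 1.9.3), with and without the block, and another length were added after seeing the data.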

Additional observations from a re-analysis of the deposited data

How the results depend on the processing

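Lrp1 was called higher and Vldlr lower in all 18 alternative settings, with log2 fold changes of 0.51 to 0.94 and -1.08 to -0.93. Lrp2 kept its direction (0.21 to 0.72) and was called in none of them. Of the 43 values compared, 25 kept their direction and call throughout, and 2 reversed in a setting. The cause of the losses below was not tested. Library size scaling shifted the median of all genes by -0.115 on the log2 scale and raised the share of calls that were lower from 46.2% to 72.9% (56.5% with the upper quartile). It gave 4884 lower and 1819 higher genes, 1 higher member of the 9 genes, 0.12 for Dab2ip, 0.075 for Numbl, -0.00014 for Numb and -0.37 for Lrp8. A threshold of 0.01 left 1671 lower and 1946 higher genes, 1 lower and 1 higher member, and not Dab2 (-0.26), Dab2ip (0.23) or Numbl (0.19). Without a filter 1 member was higher, Dab2ip had 0.21 and Numbl 0.17; with a minimum count of 50 Numbl had 0.16 and Lrp8 -0.28, and with halved counts 0.17 and -0.28. RLE factors gave 0.18 for Numbl and -0.27 for Lrp8, the upper quartile 0.15 and -0.30, and DESeq2 -0.27 for Lrp8. With the GC and length trend removed, added after seeing the data, 1 member was higher, and Dab2ip, Numbl and Lrp8 had 0.054, -0.044 and -0.36.

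Leaving out each sample in turn gave 2048 to 3065 lower and 1988 to 3149 higher genes, 1 to 3 lower and 1 to 3 higher members, and log2 fold changes of -0.35 to -0.19 for Dab2, 0.16 to 0.25 for Dab2ip, 0.13 to 0.22 for Numbl and -0.35 to -0.22 for Lrp8.

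Both groups have replicates numbered 1 to 3 in the labels. Samples that share a number deviated from their group means with correlations across genes of -0.025, 0.0038 and 0.013, so the numbers were not taken to pair the samples. With the replicate block, Numbl had 0.19 (adjusted P = 0.0602) and no other call among the 9 genes changed. The block with the GC and length trend removed gave 1 higher member, 0.053 for Dab2ip, -0.043 for Numbl and -0.37 for Lrp8. With the longest coding transcript as length, the ratios in normal glucose of Lrp1 to Dab2 and Vldlr to Lrp8 were 8.14 and 1.62.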
